A study of Mus musculus with 12 samples.

Results

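The angiopoietin and TIE receptor system was examined through 4 genes chosen by name: the ligands angiopoietin-1 (Angpt1) and angiopoietin-2 (Angpt2), and the receptors TIE2 (encoded by Tek) and TIE1 (Tie1). They are 4 of the 38924 genes listed for each tumor, and all 4 were among the 16645 genes that passed the filter on low counts. RNA-seq had been performed on 12 pancreatic neuroendocrine tumors (PanNETs) of RIP1TAG2 mice on the C57Bl6 strain, in which the insulin promoter drives a viral oncogene, the T antigen, in beta cells, and every group carried this transgene. The control group comprised 4 tumors from mice given saline, the second group 4 tumors of mice that received sunitinib, which blocks the kinases of VEGF and PDGF receptors, and the third group 4 tumors treated with rapamycin, an inhibitor of mTOR, plus sunitinib (R+S). Treatment started at 15.5 weeks and lasted 4 days, and no label says whether tumors of a group came from separate mice. The comparisons address how transcripts of a vascular signaling system differ after inhibition of VEGF receptors, alone or together with mTOR.

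Angiopoietins are secreted ligands that bind the receptor tyrosine kinase TIE2 on endothelial cells. Angiopoietin-1, made largely by mural and other perivascular cells, activates TIE2 and keeps vessels quiescent, whereas angiopoietin-2, made largely by activated endothelial cells, acts as a weak or context-dependent ligand that loosens vessels and allows sprouting or regression. TIE1 is a related endothelial receptor that binds neither ligand directly with high affinity and modulates TIE2 signaling.

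Reads assigned to genes numbered from 31872342 to 44215054 in the 12 libraries. The markers of the tumor cells were present: the 10 beta-cell markers, led by Ins2, Ins1 and Iapp, took 4.03% to 6.30% of all counts in the control group and 4.50% to 6.71% after R+S. After sunitinib the range was 0.453% to 7.85%, and tumor 6, at the low end, stood apart from the others. Transcripts of acinar cells, the enzyme-secreting cells of the exocrine pancreas that surround the islets, differed with treatment, with 13 markers led by Ctrb1, Cpb1 and Cpa1 summing to 0.00419% to 0.0124% of counts in control tumors, 0.931% to 3.50% in sunitinib tumors and 0.247% to 1.41% in R+S tumors. Of the 13, 12 were higher in each treated group than in control and 0 lower, and Ptf1a, a defining transcription factor of that lineage, had 0 counts in all 4 control tumors, while Cela2a and Rbpjl had 0 in at least 1 tumor. With TMM factors computed without those markers no call on the 4 genes changed, and the part of the acinar content in their values was otherwise not tested. All 4 control tumors carry 1 label prefix, sunitinib tumors 5, 6 and 8 share another, and so do R+S tumors 5 and 7. The prefixes of the control, sunitinib and R+S groups all differ, so prefix and treatment cannot be told apart in any comparison. Whether tumors with the same prefix are independent is not known.

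Angpt1 (ENSMUSG00000022309) lies on the minus strand at chr15:42424723-42676977 of GRCm38, with 10 merged exons of 5205 bases. It shares 737 exon bases with the antisense gene Gm17473, which had 0 to 2 reads per tumor. Angpt2 (ENSMUSG00000031465) lies on the minus strand at chr8:18690263-18741562, with 10 merged exons of 3690 bases, inside the span of Mcph1 on the opposite strand and with 0 exon bases in common with it. Tek (ENSMUSG00000006386) lies on the plus strand at chr4:94739289-94874976, with 23 merged exons of 4712 bases, and Tie1 (ENSMUSG00000033191) on the minus strand of the same chromosome at chr4:118471191-118490061, with 22 merged exons of 4917 bases. The 50-base words of these transcripts were searched for in transcripts of other genes in the sense direction only. None of those of Angpt1, Angpt2 and Tek was found there, and 0.121% of those of Tie1 were. Reverse complements were not searched, so the bases that Angpt1 shares with the antisense Gm17473 are not covered. The strand setting of the counting is not given in the sources used here, and reads on the bases that Angpt1 shares with Gm17473 may have been left uncounted.

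The receptor genes Tek and Tie1 moved together, and the region before the Tek start is shown because endothelial promoters are known for ETS factor sites, whose core is GGAA. RefSeq promoter entries (GRCm38.p6) were matched for 2 of the 4 genes, Tek and Tie1. The 250 bases before the Tek start, chr4:94739039-94739288 on the plus strand, are printed with each GGAA, on either strand, in capitals.
Tek: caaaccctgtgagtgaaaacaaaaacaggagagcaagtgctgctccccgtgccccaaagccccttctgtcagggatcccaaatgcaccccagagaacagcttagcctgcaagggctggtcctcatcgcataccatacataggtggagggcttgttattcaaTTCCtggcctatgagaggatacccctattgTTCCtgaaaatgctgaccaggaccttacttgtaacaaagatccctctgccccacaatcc
This window has 2 GGAA matches, both on the strand opposite to the gene, and at least as many occur in 76.8% of the 32851 windows of the same length. The window of Tie1 has 7 matches, a number reached or passed by 3.82% of windows, but 212 of its 250 bases lie in annotated exons of Tie1 (0 for Tek), so that it is largely transcribed sequence. Over all windows the median is 3 matches, and 93.4% of windows hold at least 1. The core letters of hypoxia response elements, ACGTG or GCGTG on either strand, have 0 matches in both windows and at least 1 in 38.6% of all windows. A match is a description of letters and not of a bound site.

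Levels are given as CPM, the reads of a gene scaled to a common library size, after TMM normalization, which corrects that size for genes that take up many reads. Angpt1, the activating ligand, had the lowest counts, from 21 to 72 reads per tumor. For the lowest count, 21 reads in R+S tumor 4, the 95% Poisson interval is 13.0 to 32.1 reads, and for the highest, 72 reads in control tumor 3, it is 56.3 to 90.7, covering counting error alone. In control tumors 1 to 4 the Angpt1 level was 1.198, 1.30, 1.83 and 1.41 CPM. The sunitinib tumors 5, 6, 8 and 12 had 1.53, 1.08, 1.50 and 0.738 CPM of Angpt1. In R+S tumors 4, 5, 7 and 10 its level was 0.583, 1.31, 0.598 and 1.34 CPM. All 3 groups overlapped, and within the R+S group tumors 4 and 7 were low while 5 and 10 lay within the control range. The means were 1.43 ± 0.276 CPM in control, 1.21 ± 0.379 in sunitinib and 0.958 ± 0.424 in R+S tumors (SD, n = 4 each).

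The log2 fold change of Angpt1 in sunitinib versus control was -0.24 (SE 0.36, 95% confidence interval -1.01 to 0.54, adjusted p = 0.744, edgeR quasi-likelihood F-test). The R+S tumors differed from control by -0.58 (SE 0.36, interval -1.36 to 0.21, adjusted p = 0.392), and from sunitinib tumors by -0.34 (SE 0.36, interval -1.12 to 0.44, adjusted p = 0.541). No Angpt1 difference passed the test, and the intervals still hold changes of 1 on the log2 scale in the downward direction.

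Angpt2, the destabilizing ligand, was counted with 88 to 514 reads per tumor. In control tumors 1 to 4 it measured 3.83, 7.62, 13.0 and 12.9 CPM. Sunitinib tumors 5, 6, 8 and 12 had 4.87, 2.43, 4.09 and 5.26 CPM of Angpt2. The R+S tumors 4, 5, 7 and 10 had 6.71, 6.59, 6.12 and 4.83 CPM. The control tumors spread widely, with a coefficient of variation of 47.7%, and control tumor 1 lay within the sunitinib range and below every R+S tumor. The other three control tumors lay above every treated tumor. Group means were 9.35 ± 4.46 CPM in control, 4.16 ± 1.25 in sunitinib and 6.06 ± 0.863 in R+S tumors (SD, n = 4 each).

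Sunitinib versus control gave a log2 fold change of -1.17 for Angpt2 (SE 0.37, interval -1.98 to -0.36), which missed the threshold in the edgeR quasi-likelihood F-test (adjusted p = 0.114). The exact permutation test over the 70 arrangements of 4 tumors against 4 gave p = 0.114 (two-sided). With DESeq2 in place of edgeR the value of -1.17 passed with an adjusted p of 0.0285. It also passed in edgeR without control tumor 1, at -1.43 with an adjusted p of 0.0253, and over the 9 alternatives that did not leave out a tumor the adjusted p ranged from 0.0285 to 0.272. For R+S versus control the log2 fold change of Angpt2 was -0.62 (SE 0.37, interval -1.43 to 0.18, adjusted p = 0.365 in edgeR). For R+S versus sunitinib it was 0.54 (SE 0.37, interval -0.26 to 1.35, adjusted p = 0.336 in edgeR), with overlapping groups.

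**Figure D1:**
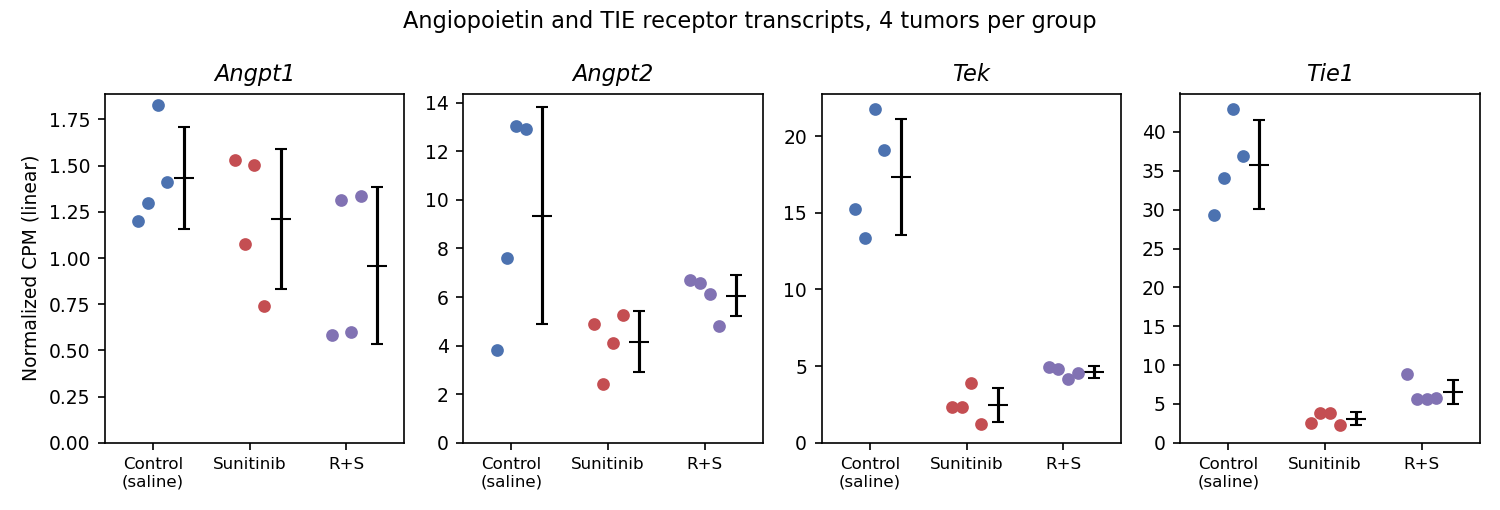
Normalized CPM (linear axes starting at 0, 1 panel per gene with its own scale) of Angpt1, Angpt2, Tek and Tie1 in each of 12 tumors, with points for tumors and the horizontal mark and bar for the mean and SD of 4 tumors. Control tumors lie between 13.4 and 21.8 CPM for Tek and between 29.3 and 42.9 CPM for Tie1, above every treated tumor, while the groups overlap for both ligands.

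Tek, which encodes TIE2, the receptor of both ligands, fell in both treated groups. In control tumors 1 to 4 the Tek level was 15.2, 13.4, 21.8 and 19.1 CPM. Sunitinib tumors 5, 6, 8 and 12 had 2.32, 2.32, 3.90 and 1.25 CPM of Tek. The R+S tumors 4, 5, 7 and 10 had 4.97, 4.82, 4.13 and 4.53 CPM. No group overlapped another, with R+S between sunitinib and control, and the R+S tumors lay close together with a coefficient of variation of 7.97%. The means were 17.4 ± 3.78 CPM in control, 2.45 ± 1.09 in sunitinib and 4.61 ± 0.367 in R+S tumors (SD, n = 4 each), from counts of 39 to 858 reads.

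In sunitinib versus control Tek was 7.07-fold lower, a log2 fold change of -2.82 (SE 0.31, interval -3.51 to -2.14, adjusted p = 0.000254, edgeR quasi-likelihood F-test). After R+S it was 3.76-fold lower than in control, at -1.91 (SE 0.30, interval -2.57 to -1.25, adjusted p = 0.00462 in edgeR). The exact permutation test gave p = 0.0286 for each, the smallest that 4 tumors against 4 can give. Both comparisons share the 4 control tumors and are not independent of each other. Between R+S and sunitinib the Tek difference was 0.91 on the log2 scale (SE 0.30, interval 0.26 to 1.56), which missed the threshold in edgeR (adjusted p = 0.0763) although the groups did not overlap (exact permutation p = 0.0286). That value passed with DESeq2, at 0.90 and an adjusted p of 0.0216, and in edgeR without sunitinib tumor 8, at 1.23 and an adjusted p of 0.0422.

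Tie1, which encodes the second receptor of the family, showed the largest fall of the 4 genes. In control tumors 1 to 4 its level was 29.3, 34.0, 42.9 and 37.0 CPM. Sunitinib tumors 5, 6, 8 and 12 had 2.53, 3.81, 3.77 and 2.25 CPM of Tie1. The R+S tumors 4, 5, 7 and 10 had 8.82, 5.63, 5.68 and 5.82 CPM. As with Tek, no group overlapped another and R+S lay in between, with R+S tumor 4 apart from the remaining 3 of its group. Means were 35.8 ± 5.70 CPM in control, 3.09 ± 0.820 in sunitinib and 6.49 ± 1.56 in R+S tumors (SD, n = 4 each), from counts of 70 to 1692 reads.

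In sunitinib versus control Tie1 was 11.6-fold lower, a log2 fold change of -3.53 (SE 0.25, interval -4.07 to -2.99, adjusted p = 1.1e-05, edgeR quasi-likelihood F-test), and its p had rank 13 among the 16645 genes. After R+S the level of Tie1 was 5.51-fold lower than in control, at -2.46 (SE 0.23, interval -2.98 to -1.95, adjusted p = 0.000201 in edgeR). Tie1 was 2.10-fold higher in R+S than in sunitinib tumors, at 1.07 (SE 0.23, interval 0.57 to 1.57, adjusted p = 0.0291 in edgeR). The exact permutation p was 0.0286 in each of the 3 comparisons. In R+S versus sunitinib, Tie1 passed in 8 of the 9 alternatives that did not leave out a tumor. Among them was DESeq2, at 1.06 with an adjusted p of 0.000441. It passed in 3 of the 8 fits with 1 tumor left out. The last call rested on single tumors and on the shared fit: the adjusted p was 0.106 when the fit held the 8 compared tumors alone, 0.05 without sunitinib tumor 12 (log2 fold change 0.95), and 0.075, 0.0941, 0.0686 and 0.051 without R+S tumors 4, 5, 7 and 10 (0.89, 1.13, 1.13 and 1.12). Calls over all genes changed in the same way, and in this comparison 438 genes were called higher and 762 lower with all tumors but 0 higher and 0 to 1 lower without R+S tumor 4, 5 or 7.

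Of the 4 genes, 2 fell and 0 rose in sunitinib versus control, where 2.55% of all tested genes fell and 1.93% rose. Tek and Tie1 were also the 2 that fell in R+S versus control, where 2.61% of tested genes fell and 1.55% rose. Tie1 was the 1 gene that rose in R+S versus sunitinib, where 2.63% of tested genes rose and 4.58% fell. Groups that did not overlap, with the treated tumors lower, were found for 2 of the 4 genes in each comparison with control, against 5.76% of all genes for sunitinib and 11.9% for R+S, and with R+S higher than sunitinib for 2 of the 4, against 8.90%. The median log2 fold change over all tested genes was 0.03, 0.01 and -0.03 in the 3 comparisons. In such bulk RNA, fewer endothelial cells and less RNA per endothelial cell cannot be told apart.

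**Figure D2:**
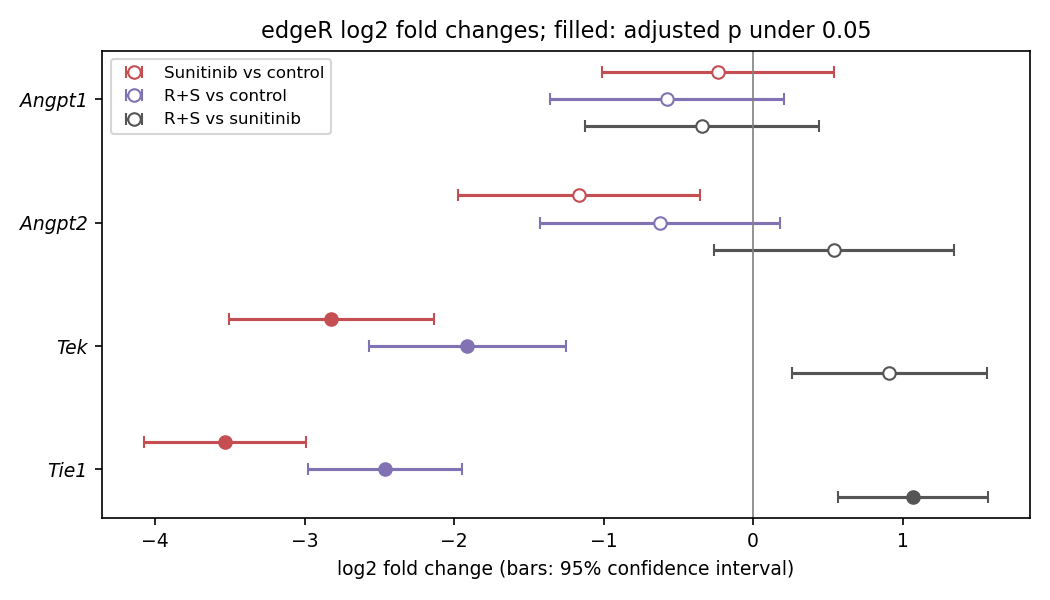
Log2 fold changes from edgeR (horizontal axis, points) with 95% confidence intervals (bars) for 4 genes and 3 comparisons, filled where the adjusted p was under 0.05. The Tek and Tie1 points versus control lie between -3.53 and -1.91 with intervals away from 0, the Angpt1 intervals all span 0, and Tie1 has the one filled point in R+S versus sunitinib.

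Levels of different genes were compared per kilobase of merged exon, on a linear scale. In control tumors the order was Tie1 at 7.28 ± 1.16 CPM per kilobase, Tek at 3.69 ± 0.802, Angpt2 at 2.53 ± 1.21 and Angpt1 at 0.275 ± 0.0531 (SD, n = 4 each). The Angpt2 and Tek ranges overlapped across control tumors, and the other neighbors did not. In sunitinib tumors Angpt2 came first, at 1.13 ± 0.340 CPM per kilobase, then Tie1 at 0.628 ± 0.167, Tek at 0.520 ± 0.232 and Angpt1 at 0.233 ± 0.0727, with every pair of neighbors overlapping. In R+S tumors the order was Angpt2 at 1.64 ± 0.234 CPM per kilobase, Tie1 at 1.32 ± 0.317, Tek at 0.979 ± 0.0780 and Angpt1 at 0.184 ± 0.0815, where Angpt2 and Tie1 overlapped and the other neighbors did not.

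Within single tumors, Angpt2 exceeded Tek per kilobase in 0 of 4 control, 4 of 4 sunitinib and 4 of 4 R+S tumors. It exceeded Tie1 in 0 of 4, 3 of 4 and 4 of 4. The mean log2 ratio of Angpt2 to Tek per kilobase was -0.67 ± 0.65 in control, 1.17 ± 0.96 in sunitinib and 0.74 ± 0.20 in R+S tumors (SD, n = 4 each). Tie1 was higher than Tek in every control and R+S tumor and in 3 of 4 sunitinib tumors, and the mean log2 ratio of Tie1 to Tek per kilobase was 0.99 ± 0.20, 0.35 ± 0.44 and 0.41 ± 0.26 in control, sunitinib and R+S tumors. These ratios between ligand and receptor, and between the receptors, are descriptions and were not tested.

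**Figure D3:**
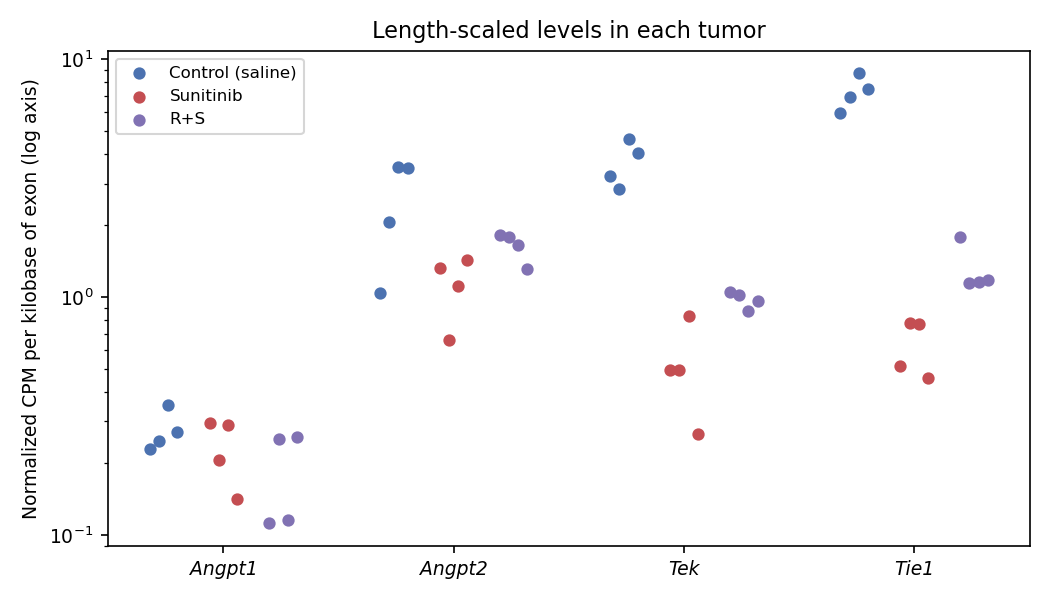
Normalized CPM per kilobase of exon (vertical log axis) of the 4 genes in each of 12 tumors, 1 point per tumor and 1 color per group. Control tumors place Tie1 highest (mean 7.28), whereas in both treated groups Angpt2 has the highest mean (1.13 and 1.64) and Angpt1 stays lowest in all 3 groups.

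The balance of the ligands was followed as the log2 ratio of Angpt2 to Angpt1 CPM. In control tumors 1 to 4 it was 1.63, 2.51, 2.80 and 3.15. In sunitinib tumors 5, 6, 8 and 12 the ratio was 1.64, 1.14, 1.41 and 2.75. In R+S tumors 4, 5, 7 and 10 it was 3.41, 2.28, 3.25 and 1.81. All 3 groups overlapped, with means of 2.52 ± 0.65 in control, 1.73 ± 0.71 in sunitinib and 2.69 ± 0.77 in R+S tumors (SD, n = 4 each). The difference was -0.79 for sunitinib minus control (exact permutation p = 0.171), 0.17 for R+S minus control (exact permutation p = 0.743) and 0.95 for R+S minus sunitinib (exact permutation p = 0.143). After Benjamini-Hochberg adjustment over the 15 ratio tests, these exact permutation p-values were 0.257, 0.743 and 0.238. The sign of the R+S minus control difference turned without control tumor 1 (-0.13), R+S tumor 4 (-0.08) or R+S tumor 7 (-0.02).

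Each gene was then set against 14 endothelial markers of the same tumor. These markers, led by Plvap, Pecam1 and Eng, summed to 688.5 to 906.9 CPM in control tumors, 87.8 to 132.1 in sunitinib tumors and 167.3 to 215.4 in R+S tumors, with all 14 detected in every tumor. In sunitinib versus control 12 of 14 fell and 0 rose (median log2 fold change -2.87), in R+S versus control 12 of 14 fell and 0 rose (median -1.79), and in R+S versus sunitinib 9 of 14 rose and 0 fell (median 0.84). Without sunitinib tumor 6, an alternative chosen after seeing the data, 13 of 14 fell in sunitinib versus control and 8 of 14 rose in R+S versus sunitinib. With all tumors, the 2 not called in either comparison with control were Vwf and Esam, named after their values were seen. Vwf, the von Willebrand factor stored in endothelial granules, had -0.12 for sunitinib and 0.665 for R+S (adjusted p = 0.764 and 0.0859 in edgeR). The junction protein gene Esam had -0.93 and -0.79 (adjusted p = 0.251 and 0.318 in edgeR). Without sunitinib tumor 6, Esam was called lower for sunitinib. Over all genes, 0 were called higher in R+S versus sunitinib with only the 8 tumors compared or without R+S tumor 4, 5 or 7. The rises in that comparison, in this list and those below, were therefore not called in those fits. Among the 14, 8 had a lower log2 fold change than Tek and 4 a lower one than Tie1 in sunitinib versus control. For R+S the numbers were 6 for Tek and 4 for Tie1. Of the ligands, Angpt2 had 12 and Angpt1 13 markers below it in sunitinib versus control, and both had 13 in R+S versus control.

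The difference between the log2 CPM of a gene and the mean log2 CPM of the 14 markers gave 1 value per tumor. For Tek it was -1.11 ± 0.23 in control, -1.26 ± 0.38 in sunitinib and -1.07 ± 0.14 in R+S tumors (SD, n = 4 each), with overlapping groups. The group differences of Tek were -0.15 for sunitinib minus control, 0.05 for R+S minus control and 0.20 for R+S minus sunitinib, with exact permutation p-values of 0.543, 0.743 and 0.4. The signs of the differences that involve R+S depended on the marker set or on 1 tumor: with Pecam1 and Cdh5 alone they were -0.15 for R+S minus control and -0.01 for R+S minus sunitinib, and without control tumor 2 the former was -0.06.

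For Tie1 the same value was -0.06 ± 0.11 in control, -0.86 ± 0.14 in sunitinib and -0.60 ± 0.13 in R+S tumors (SD, n = 4 each). Control tumors ran from -0.20 to 0.06 and lay above every treated tumor, whose values ran from -1.03 to -0.44. Tie1 relative to the markers differed by -0.80 for sunitinib minus control and by -0.54 for R+S minus control, each with an exact permutation p of 0.0286, the smallest possible. Adjusted over the 15 ratio tests these exact permutation p-values were 0.0612, so none passed the threshold. The difference between R+S and sunitinib was 0.26 (exact permutation p = 0.0571, adjusted 0.107). Its size depended on the marker set. It was 0.06 with Pecam1 and Cdh5 alone (exact permutation p = 0.743) and 0.34 with the median of the markers (exact permutation p = 0.0857). As 0.0286 is the smallest p possible, groups without overlap could pass after adjustment only if more of the 15 tests had reached it. Missing the threshold is therefore not evidence that a difference was absent.

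For Angpt2 the value relative to endothelial markers was -2.13 ± 0.73 in control, -0.46 ± 0.73 in sunitinib and -0.69 ± 0.20 in R+S tumors, and for Angpt1 it was -4.66 ± 0.10, -2.19 ± 0.33 and -3.37 ± 0.75 (SD, n = 4 each). Both treated groups lay above control without overlap for both ligands. The differences of Angpt2 were 1.67 for sunitinib minus control and 1.45 for R+S minus control, and those of Angpt1 were 2.46 and 1.28, each with an exact permutation p of 0.0286 and an adjusted p of 0.0612. The limit stated for Tie1 holds for these adjusted values as well. Angpt1 relative to the markers differed by -1.18 for R+S minus sunitinib (exact permutation p = 0.0286, adjusted 0.0612), and Angpt2 differed by -0.23 (exact permutation p = 0.571, adjusted 0.659). The scale of these values carries the fall of the markers themselves, and Angpt1 and Angpt2 alone passed no test between groups in the edgeR fit of all tumors.

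**Figure D4:**
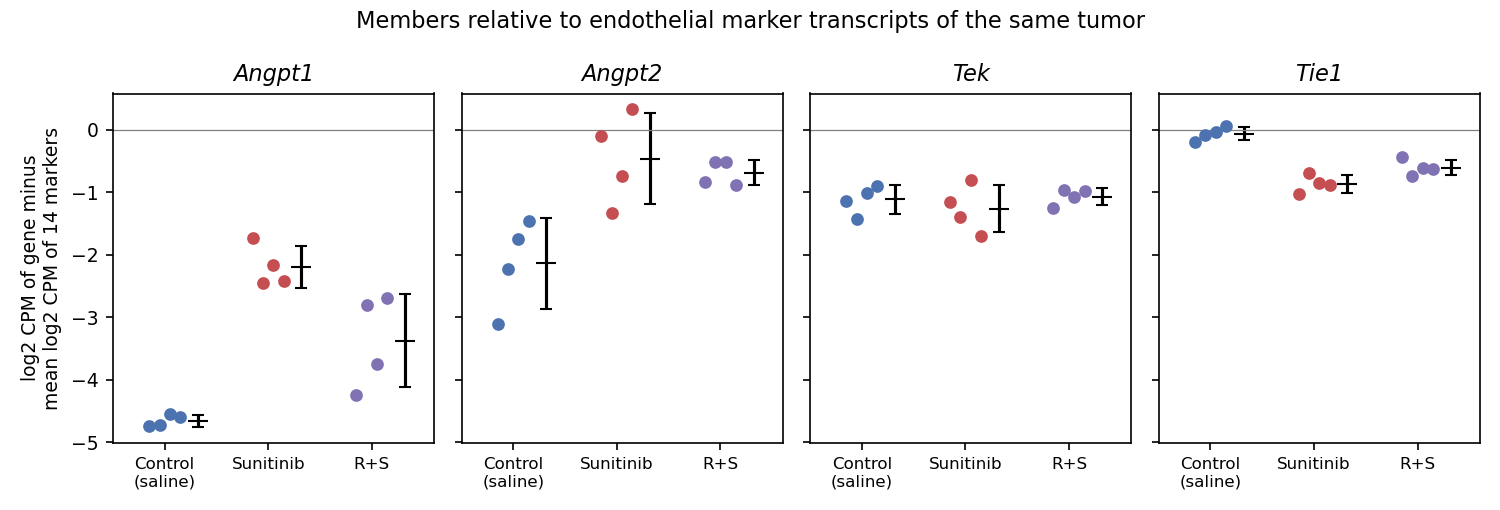
Log2 CPM of each gene minus the mean log2 CPM of 14 endothelial markers of the same tumor (shared vertical axis), 1 point per tumor, with the mean and SD of 4 tumors beside the points. Tek overlaps across the groups around -1, Tie1 is lower in treated tumors (means -0.86 and -0.60) than in control tumors (-0.06), and Angpt1 and Angpt2 are higher in treated tumors.

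Markers of other cells that express these genes or lie near vessels were measured in the same way. Mural cells, the pericytes and smooth muscle cells that supply angiopoietin-1, were represented by 10 markers led by Rgs5, Acta2 and Myh11. They summed to 423.4 to 769.3 CPM in control, 178.6 to 403.9 in sunitinib and 292.8 to 646.9 in R+S tumors. In sunitinib versus control 5 of 10 fell and 0 rose, which were Pdgfrb, Notch3, Kcnj8 and Mcam, named after their values were seen, and Rgs5, a regulator of G protein signaling in pericytes, at -1.41 (adjusted p = 0.000532 in edgeR), whereas the contractile genes Acta2 and Myh11 had values of 0.42 and 0.37 (adjusted p = 0.739 and 0.796). After R+S 2 of 10 were lower than in control, Kcnj8 and Rgs5, the latter at -0.79 (adjusted p = 0.0268 in edgeR). Acta2 and Myh11 had 1.38 and 1.53 in that comparison (adjusted p = 0.245 and 0.256 in edgeR). Of the 10 values, 3 were positive and 7 negative. Mean levels in control and R+S tumors were 332 and 192.4 CPM for Rgs5, 46.1 and 120.2 for Acta2 and 30.5 and 87.8 for Myh11. The R+S sum therefore combines markers whose values had opposite signs. Compared with sunitinib, 2 of 10 were higher after R+S, Rgs5 and Notch3, and without sunitinib tumor 6 the count was 0. The part of the mural markers in the Angpt1 values was not tested.

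The 6 fibroblast markers, led by Col3a1, Col1a2 and Col1a1, had 0 calls in each of the 3 comparisons with all tumors, with medians of 0.23, -0.58 and -0.66 on the log2 scale and sums of 313.6 to 905.7, 681.4 to 964.3 and 405.5 to 502.3 CPM in control, sunitinib and R+S tumors. Of 4 lymphatic markers, led by Prox1, Lyve1 and Flt4, only Flt4 fell in the comparisons with control, at -3.68 for sunitinib (adjusted p = 0.00157 in edgeR) and -2.51 for R+S (adjusted p = 0.0176), and Flt4, a VEGF receptor, is also made by sprouting blood vessels. The lymphatic markers summed to 134.4 to 192.1, 96.2 to 156.1 and 168 to 189.7 CPM. Most of that was Prox1, with means of 117.6, 91.8 and 145 CPM in control, sunitinib and R+S tumors, so the sums mainly follow this gene. Whether the Prox1 reads came from lymphatic vessels was not tested. Macrophages, some of which express TIE2, were represented by 6 markers led by Lyz2, Csf1r and Cd68, which summed to 323.3 to 472.9, 176.1 to 485.9 and 205.6 to 293.7 CPM, with 2 of 6 falling in sunitinib versus control (Adgre1 and Mrc1), 1 in R+S versus control (Mrc1) and 1 in R+S versus sunitinib (Itgam), all named after their values were seen. Of 5 platelet markers, a cell type that stores angiopoietin-1, 3 were tested, Gp1bb, Itga2b and Pf4, and only Pf4 fell, in R+S versus control at -2.63 (adjusted p = 0.0218 in edgeR). Platelet markers summed to 5.53 to 10.5, 5.55 to 7.54 and 3.24 to 5.85 CPM, and Gp9 had 0 reads in at least 1 tumor. The part of these cells in the values of the 4 genes was not tested. None of the 10 beta-cell markers passed the edgeR test in any of the 3 comparisons with all tumors. Without sunitinib tumor 6, calls in R+S versus sunitinib changed in several of these lists: Col1a1 (fibroblast) and Ucn3 (beta cell) were called lower, Flt4 (lymphatic) was called higher, and Lyz2 in place of Itgam was the macrophage gene called lower, so that each of these lists had 1 call.

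Beyond the 4 genes, 23 genes of TIE signaling were listed by role and all were tested. In sunitinib versus control 4 of 23 fell and 0 rose, with a median log2 fold change of -0.09. After R+S 4 of 23 had fallen and 0 risen against control, with a median of -0.02. Against sunitinib, 1 rose and 0 fell after R+S, with a median of 0.15. The same 4 genes, Ptprb, Nos3, Klf2 and Itga5, passed in both comparisons with control, which share their control tumors.

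Ptprb encodes VE-PTP, the endothelial phosphatase that removes phosphate from TIE2 and dampens its signaling. Its mean level was 72.2 ± 13.7 CPM in control, 12.5 ± 4.47 in sunitinib and 29.3 ± 2.79 in R+S tumors (SD, n = 4 each). Its log2 fold change was -2.53 (SE 0.27, adjusted p = 0.000164, edgeR) for sunitinib versus control and -1.30 (SE 0.25, adjusted p = 0.0152) for R+S versus control. Ptprb was the gene of the list that rose in R+S versus sunitinib, by 1.23 (SE 0.26, adjusted p = 0.0277 in edgeR), and without sunitinib tumor 6 the count for that comparison was 2 of 23, Ptprb and Foxo1. The Ptprb rise was not called with only the 8 tumors compared or without R+S tumor 4, 5 or 7. Other regulators of the receptors did not pass: the ectodomain proteases Adam17 and Mmp14 had -0.06 and -0.45 in sunitinib versus control (adjusted p = 0.831 and 0.194), and Svep1, a large extracellular protein that binds TIE1, had -0.01 (adjusted p = 0.991).

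Among effectors, Nos3, the endothelial nitric oxide synthase, fell in both comparisons, with log2 fold changes of -2.06 in sunitinib versus control (adjusted p = 0.0012 in edgeR) and -1.57 in R+S versus control (adjusted p = 0.00926). Klf2, a transcription factor of quiescent endothelium induced by flow and by angiopoietin-1, fell as well, at -1.81 (adjusted p = 0.000486) and -1.38 (adjusted p = 0.00433). Foxo1, the transcription factor that AKT downstream of TIE2 restrains and that drives Angpt2, is not specific to endothelium and had -0.66 in sunitinib versus control, 0.37 in R+S versus control and 1.04 in R+S versus sunitinib (adjusted p = 0.276, 0.538 and 0.0655 in edgeR). Itga5, the integrin chain that can pair with TIE2 and bind angiopoietins, also fell, at -1.2 (adjusted p = 0.00514) and -1.005 (adjusted p = 0.0191), while its partner Itgb1 had 0.51 and 0.11 (adjusted p = 0.207 and 0.823) and Itgav 0.06 and 0.42 (adjusted p = 0.932 and 0.492).

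The 8 receptor adaptors, Dok2, Grb2, Grb7, Grb14, Shc1, Nck1, Ptpn11 and Tnip2, did not pass in any comparison, with log2 fold changes in sunitinib versus control from -0.41 for Nck1 to 0.70 for Tnip2. The PI3K and AKT genes Pik3ca, Pik3cb, Pik3r1 and Akt1 did not pass either, ranging from -0.51 for Pik3cb to -0.06 for Pik3r1 in that comparison. These genes are used by most cells of a tumor. Angpt4, the third angiopoietin of mice, was low, with 7 to 61 reads per tumor and means of 0.821 ± 0.383, 0.858 ± 0.301 and 0.350 ± 0.239 CPM in control, sunitinib and R+S tumors (SD, n = 4 each). It did not pass in edgeR (log2 fold changes 0.06, -1.23 and -1.29, adjusted p = 0.956, 0.183 and 0.106 in the 3 comparisons).

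**Figure D5:**
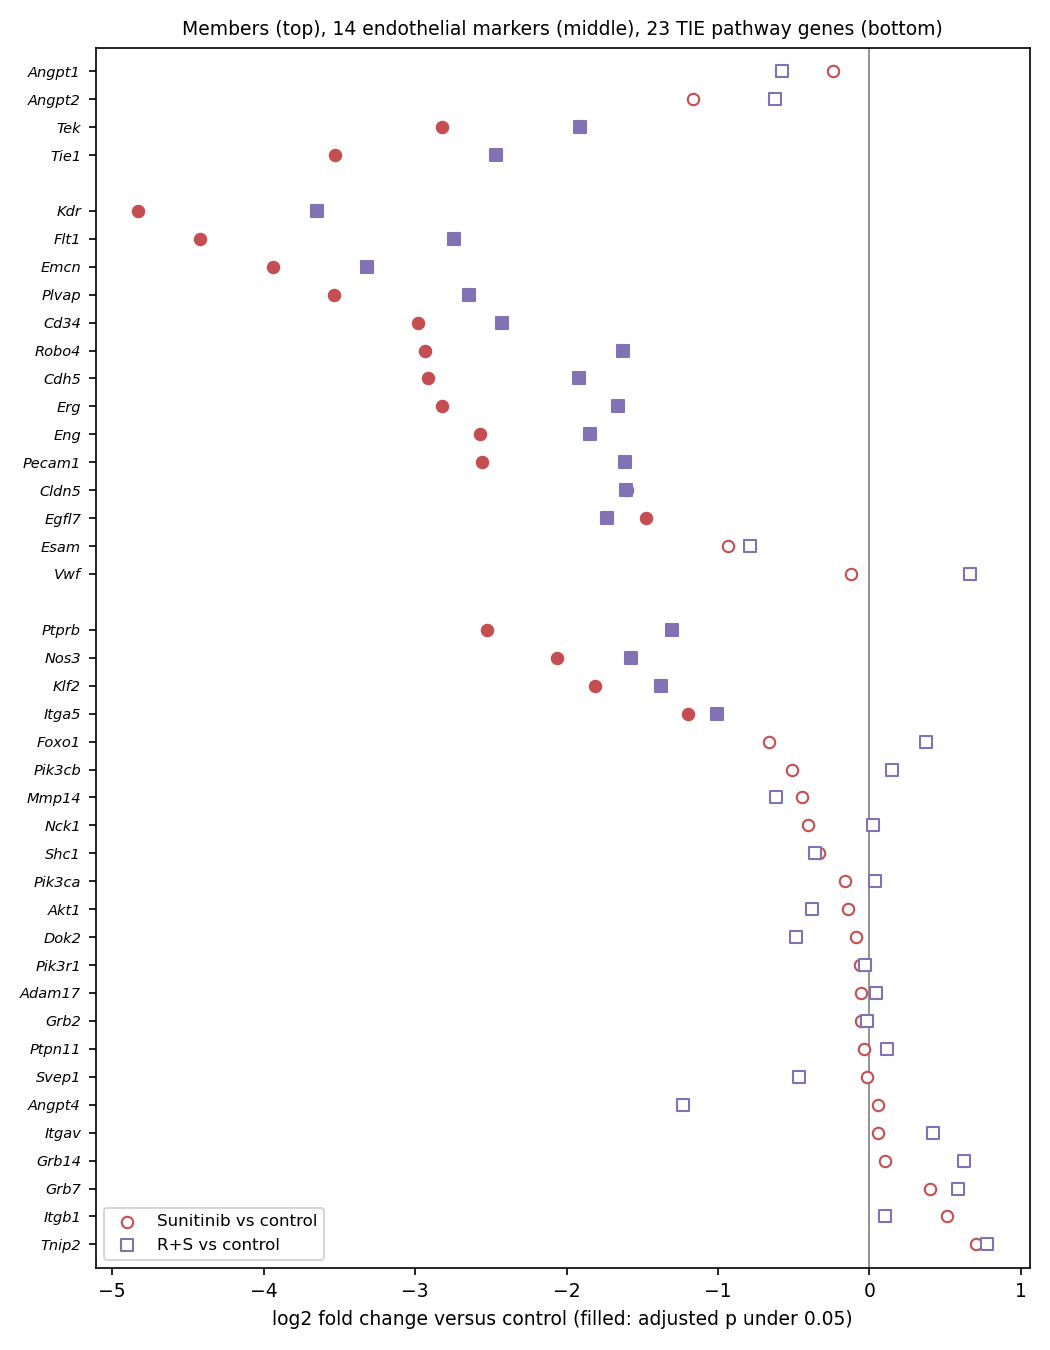
Log2 fold changes versus control (horizontal axis) from edgeR for the 4 genes, 14 endothelial markers and 23 TIE pathway genes, with circles for sunitinib and squares for R+S, filled where the adjusted p was under 0.05. Tek (-2.82 and -1.91) and Tie1 (-3.53 and -2.46) lie among the endothelial markers, and of the pathway genes Ptprb, Nos3, Klf2 and Itga5 are filled.

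The angiopoietin-like proteins resemble angiopoietins in sequence but do not bind TIE2. Of the 6 genes of this family that were tested, only Angptl4, an inhibitor of lipoprotein lipase induced by hypoxia and fasting, passed: it rose from 1.07 ± 0.343 CPM in control to 6.91 ± 3.31 in sunitinib and 4.75 ± 1.85 in R+S tumors (SD, n = 4 each). Its log2 fold change was 2.68 (SE 0.43, adjusted p = 0.00352, edgeR) for sunitinib and 2.14 (SE 0.43, adjusted p = 0.0173) for R+S versus control. The other five tested did not pass, with values in sunitinib versus control of -0.36 for Angptl2, -0.07 for Angptl6, 0.25 for Angptl1, 1.11 for Angptl7 and 2.22 for Angptl8, the last with 0 to 56 reads per tumor.

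Hypoxia is a known inducer of Angpt2, and 14 hypoxia-induced genes were read beside it. In sunitinib versus control 9 of 14 rose and 0 fell (median log2 fold change 1.94), in R+S versus control 4 rose, which were Ak4, Ankrd37, P4ha1 and Pdk1, named after their values were seen, and 0 fell (median 0.56), and in R+S versus sunitinib 6 fell and 0 rose (median -0.86), or 4 and 0 without sunitinib tumor 6. In the same comparisons the Angpt2 values were -1.17, -0.62 and 0.54, none of them past the edgeR threshold. Whether hypoxia acted on Angpt2 in these tumors was not tested. Vegfa, the list's most abundant gene and the ligand of the receptors that sunitinib inhibits, had -0.04, 0.55 and 0.59 (adjusted p = 0.936, 0.231 and 0.128). Next in abundance were Ndrg1, at -0.10 in sunitinib versus control (adjusted p = 0.734), and Pdk1, at 1.52 (adjusted p = 0.0042). For R+S versus sunitinib, the lower calls over all genes were 3 with only the 8 tumors compared. Without R+S tumor 4, 5 or 7 they were 0 to 1, so the 6 falls of this list in that comparison depend on the fit.

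The genes most like each of the 4 were sought by Pearson's r of log2 CPM over the 12 tumors, which share the group differences, so r within groups, after removal of the group means, is given as well. For Tek they were Arap3 (r = 0.991, within groups 0.955), Clec14a (0.989 and 0.92), Pecam1 (0.988 and 0.875), Flt1 (0.988 and 0.887) and She (0.988 and 0.89). For Tie1 they were Prkch (0.991 and 0.831), Eng (0.991 and 0.69), Mmrn2 (0.991 and 0.741), Adgrl4 (0.991 and 0.71) and Kdr (0.99 and 0.728). Pecam1, Flt1, Eng and Kdr were also among the 14 endothelial markers.

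The ligands gave other names and lower values. For Angpt2 the most similar genes were Ranbp9 (r = 0.895, within groups 0.877), Tmem243 (0.875 and 0.771), Tmem74 (0.853 and 0.79), Has3 (0.852 and 0.793) and Afap1l2 (0.846 and 0.795). For Angpt1 they were Pla2g4a (0.878 and 0.864), Syne3 (0.862 and 0.869), Il18rap (0.841 and 0.777), Sept11 (0.813 and 0.759) and AF357399 (0.81 and 0.732). None of these was an endothelial or mural marker on the lists used here. They were picked for the highest r among all tested genes over only 12 tumors. Whether chance alone gives such values was not tested, and the values within groups come from the same tumors. Il18rap, AF357399 and Tmem74 were also low, with mean log2 CPM of -0.1, -0.76 and -0.9. Between the 4 genes themselves r over the 12 tumors was 0.975 for Tek and Tie1 (0.688 within groups), 0.639 for Angpt2 and Tek (0.121 within groups), 0.432 for Angpt1 and Tek (0.57 within groups) and 0.189 for Angpt1 and Angpt2 (0.097 within groups). With Tie1, r was 0.635 for Angpt2 (0.096 within groups) and 0.327 for Angpt1 (0.047 within groups).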

How the data were processed

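RNA had been sequenced from 12 tumors, and for each tumor the authors deposited counts per gene, as whole numbers that were not normalized, from a stranded poly(A) library. The submitters' processing notes name cutadapt 1.2.1, TopHat2 2.0.9, HTSeq 0.5.4p3 and GRCm38, while the strand setting and annotation release are not given in the sources used here. The 5 closing totals of each table were left out: reads on no gene were 11.1% to 18.8% and ambiguous reads 0.694% to 0.953% of uniquely aligned reads. Reads aligned to several places were not counted.

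Symbols (37607 of 38924 identifiers), coordinates and exon lengths came from GENCODE M21. Groups and tumor numbers came from the sample labels. Tumors were treated as independent, so p-values measure the spread between these tumors, which may share mice. No pair of tumors in a group differed by as little as sampling noise. Reads had no molecular identifiers.

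The test was edgeR 4.0.16 with its quasi-likelihood F-test (robust, TMM, filterByExpr with minimum count 10 and minimum total 15) in R 4.3.3 with limma 3.58.1. All 12 tumors entered 1 fit with 3 contrasts, and Benjamini-Hochberg adjustment ran over all tested genes with a threshold of 0.05. Standard errors are the absolute log2 fold change over the root of F, and 2 was the prior count in log2 CPM. Ratios were tested by two-sided exact permutation of 4 tumors against 4, adjusted over 15 tests. On simulated counts for sunitinib versus control (16505 genes) the fit recovered 38 of 100 genes changed by 1 and 78 of 100 changed by 2 on the log2 scale, with 3 other calls.

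The 4 genes and all lists were chosen with earlier results of these data known. Named are the 4 genes, tested genes of the TIE pathway and angiopoietin-like lists, the 3 most abundant tested genes of each marker list with any marker at 0, and the 5 most alike genes per member. Exceptions are stated where they occur. Alternatives were DESeq2 1.42.0, other normalizations (RLE, upper-quartile, library size, TMM without acinar markers), other filters, only the 8 tumors compared, treated tumors of 1 label prefix summed (never the controls, all of 1 prefix), a prior count of 0.5, other marker summaries and each tumor left out. List counts without sunitinib tumor 6 were added after seeing the data. Comparisons made by the study itself were not used.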

Additional observations from a re-analysis of the deposited data

Results flagged for a closer look

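Among 30 sets of 4 tumors examined for a value far from the rest, 2 had one, and chance gives about 1 in 20 sets if they are independent. These sets reuse the same genes and tumors and are not independent, and the number that chance gives here was not computed. The Tie1 level of R+S tumor 4 was 8.82 normalized CPM, whereas the remaining 3 tumors of that group lay between 5.63 and 5.82. The log2 ratio of Tie1 to Tek CPM in control tumor 2 was 1.345, and the other three control tumors lay between 0.939 and 0.978. In control tumor 2 the Tek level was the lowest of its group, at 13.4 CPM, while its Tie1 level of 34.0 CPM was within the range of the others.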

How the results depend on the processing

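The falls of Tek and Tie1 versus control kept their direction and their side of the threshold under all 9 other settings and with each of 8 tumors left out. Summing by label prefix, 1 of the 9, was done in the treated groups alone. That setting does not address the prefix that the control tumors share, nor the differing prefixes of the sunitinib and R+S groups. The ranges over the 9 settings were -3.06 to -2.81 (Tek) and -3.66 to -3.52 (Tie1) for sunitinib, and -1.95 to -1.90 and -2.50 to -2.41 for R+S. DESeq2 called Angpt2 in sunitinib versus control (-1.165, adjusted p = 0.0285) and Tek in R+S versus sunitinib (0.899, adjusted p = 0.0216). With only the 8 tumors compared, Tie1 in R+S versus sunitinib was 1.067 (adjusted p = 0.106 in edgeR). With Pecam1 and Cdh5 as the markers, Tek relative to endothelium turned sign, to -0.154 for R+S minus control and -0.008 for R+S minus sunitinib. The cause of these changes was not tested.

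With each tumor left out, log2 fold changes in sunitinib versus control, R+S versus control and R+S versus sunitinib ran from -0.357 to -0.063, -0.779 to -0.399 and -0.541 to -0.161 (Angpt1), from -1.426 to -0.964, -0.883 to -0.421 and 0.355 to 0.676 (Angpt2), from -3.14 to -2.607, -2.018 to -1.784 and 0.697 to 1.23 (Tek), and from -3.647 to -3.409, -2.646 to -2.364 and 0.888 to 1.185 (Tie1). The Angpt2 to Angpt1 ratio differences ran from -1.128 to -0.581, -0.131 to 0.458 and 0.713 to 1.293, with -0.131, -0.076 and -0.02 for R+S minus control without control tumor 1, R+S tumor 4 and R+S tumor 7. Relative to endothelial markers the ranges were 2.312 to 2.553, 1.059 to 1.573 and -1.405 to -0.891 (Angpt1), 1.348 to 1.963, 1.123 to 1.676 and -0.514 to 0.037 (Angpt2, the 0.037 without sunitinib tumor 12), -0.3 to -0.004, -0.056 to 0.12 and 0.05 to 0.346 (Tek, the -0.056 without control tumor 2), and -0.864 to -0.748, -0.599 to -0.497 and 0.205 to 0.321 (Tie1). With 3 tumors against 4 the exact permutation p rose to between 0.0571 and 0.0857 in 18 of these cases, for Angpt1 and Angpt2 relative to the markers.

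Counts of called genes (higher and lower) moved by over 1.5 times. For sunitinib versus control they were 321 and 424, against 758 and 719 with DESeq2, 141 and 239 with only the 8 tumors compared, and 134 and 274 with at least 10 counts in every tumor. For R+S versus control, 258 and 435 compared with 689 and 999, 1083 and 1474, and 145 and 331 under the same settings. In R+S versus sunitinib, 438 and 762 compared with 1220 and 1825 with DESeq2, 0 and 3 with only the 8 tumors compared, and 209 and 292 without a filter on low counts. With each tumor left out the counts in sunitinib versus control ran from 172 to 467 higher and 257 to 562 lower, those in R+S versus control from 106 to 229 and 185 to 392, and those in R+S versus sunitinib from 0 to 1170 and 0 to 1691. No paired analysis was made because no label ties a tumor of any group to a tumor of another group. Among the ligands depth limits Angpt1 and Angpt4, with 21 to 72 and 7 to 61 reads per tumor, and Angptl7 and Angptl8 have fewer at their lowest (3 and 0).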
